A study of Gossypium hirsutum with 51 samples.

Results

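Among 9199 cDNA clones of upland cotton (Gossypium hirsutum) with a measured difference between wild-type and fl mutant ovules 10 days after flowering, 212 read at least 2.3-fold higher in fl. They were chosen by that difference alone. A clone entered where its log2 ratio of wild type over fl at +10, averaged over replicate sets, was -1.2 or lower, which held for 2.3% of the clones with a value. The choice used measured values, so the difference at +10 is described here without a test, and tests are given only for comparisons that did not enter the choice. The same distance the other way, higher in wild type, was reached by 686 clones, or 7.46%.

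The study measured total RNA of ovules on cDNA arrays in 2 colours (Cy3 and Cy5). Wild-type ovules of ages -3, 0, +5, +10, +15 and +20 were each hybridised against +3 wild-type ovules, where age is in days post anthesis and 0 is the day the flower opens. Wild type was compared directly with fl at +3 and at +10. Each of the 8 comparisons has 3 sets, each of a forward array and a dye swap. With 3 self-to-self arrays, with +3 wild-type RNA under both dyes, there were 51 arrays in all. The labels name neither the line behind the fl allele nor that of the wild type, give no treatment for either, and do not say how many plants an RNA pooled. The samples are biologically independent according to the design text, and each set counted as 1 replicate.

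A cotton fibre is a single cell that grows out of the outer epidermis of the ovule, the layer that becomes the surface of the seed. Fibres start around flowering, elongate, and then lay down a thick secondary wall of cellulose, while embryo, endosperm and seed coat develop in the same ovule. In the cotton literature fl stands for fuzzless-lintless, a class of mutants whose ovules bear no fibres, so a whole wild-type ovule holds a cell type that such an ovule lacks. In whole-ovule RNA, fewer cells of a type and less RNA per cell cannot be told apart. The sources used here pair no gene name or sequence with a clone, so clones are given by plate and well (CM010H07 is plate 10, well H07), no function is given to any, and the tissue could not be checked against marker genes.

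All values are log2 ratios of the deposited table, so a difference of 1 is 2-fold. The direction of the ratios is called likely, from a control spot named HEX that read between -11.7 and -7.16 on 23 forward arrays and between 5.83 and 12.11 on 23 dye swaps. An array measured between 7639 and 11681 of the 11682 clones. In the comparisons of +5 and +10 with +3, the forward arrays of +5 set 3 and +10 set 2 carry the same values to 6 decimals on all 19 control and named spots measured on both, so these sets were left out and n = 2 there. For wild type against fl at +3 the sign of the clone values was turned after they were seen. For the check behind this, set 2 of the self-to-self arrays was turned too, to the order of the design text. In the genotype comparison at +3 the dye effect of each set correlated negatively across clones with that of the self-to-self arrays. There r was from -0.57 to -0.40 in 3 sets, against -0.06 to 0.69 in the other 21 sets. The HEX spot showed no such reversal, being below 0 on all 23 forward arrays and above 0 on all 23 dye swaps. Only clone values were turned, and control spots kept their deposited sign. With the deposited sign, every genotype difference at +3 given below changes sign, and higher and lower exchange places. The total counts at +3 are given both ways.

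At +10 the 212 clones had a median log2 ratio of wild type over fl of -1.45, a 2.73-fold higher level in fl, and reached -4.30, or 19.7-fold. The ratio was below 0 for all 212 clones on every array that measured them. In set 1 the median was -1.41 over 212 clones, in set 2 it was -1.38 over 173, and in set 3 it was -1.62 over 211. Set 3 thus read furthest from 0, and 103 of the 172 clones with all 3 sets had their lowest value there. The remaining 40 clones had 2 sets. Taken set by set, 124 clones were at -1.2 or lower in every set measured. At least 4-fold differences were seen for 25 clones and at least 8-fold for 3. The ordered plot of set values shows a short steep start, where sets lie far apart, and then a long shelf close to the threshold.

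**Figure D1:**
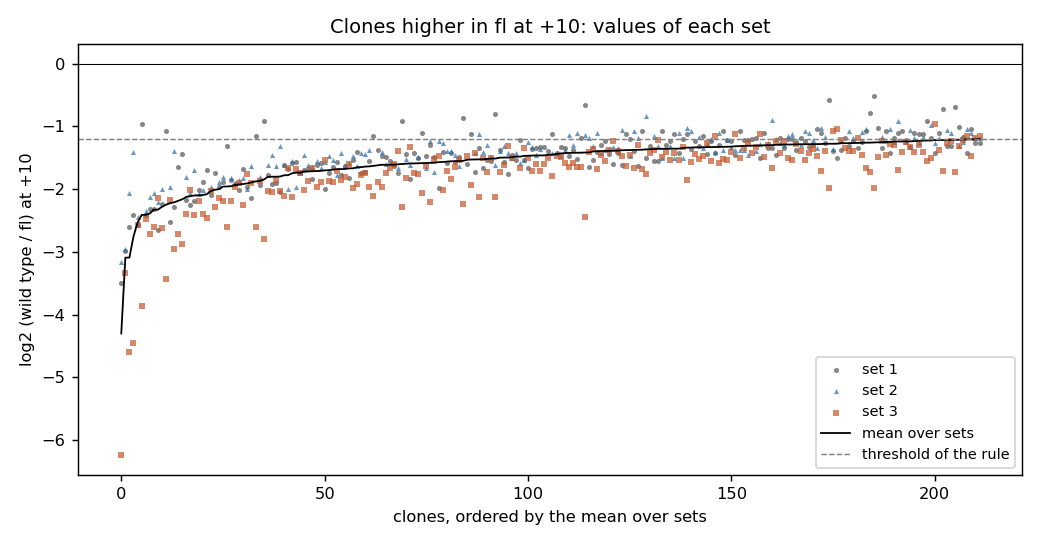
Log2 ratio of wild type over fl at +10 (vertical axis) for the 212 clones, ordered by their mean over sets (horizontal axis), with 1 point per set, the mean as a line and the threshold of -1.2 dashed. No point lies above 0, and the lowest points, down to -6.24, belong to set 3.

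The spread over sets had a median SD of 0.196 among these clones, against 0.128 among all clones with a value. Across all clones the sets correlated with r of 0.960, 0.933 and 0.927, which describes the agreement of whole arrays. Opposed dyes moved a value little, with a median absolute dye effect of 0.098 here and 0.091 over all clones. On the 3 self-to-self arrays, where no difference in RNA exists, the clones read a median of -0.07 after centring and from -0.89 to 0.84. None of the 212 lay beyond 1 in either direction there, and 23 of 11682 clones (0.197%) did. These arrays hold 1 kind of RNA and show no spread between plants.

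CM015H12 had the lowest ratio, with -3.50, -3.16 and -6.24 in sets 1 to 3 (mean -4.30, SD 1.69, n = 3). Its direction was the same in every set, while set 3 alone was about 3 log2 units beyond the others. CM050F11 read -2.98, -2.96 and -3.34 (mean -3.09, SD 0.21), an 8.54-fold higher level in fl with sets close together. CM103C12 had the same mean, -3.09, but from -2.61, -2.07 and -4.59 (SD 1.33). These are the 3 clones beyond 8-fold, and CM050F11 is the one among them whose sets do not spread widely.

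CM103F10 followed with -2.41, -1.41 and -4.45 (mean -2.76, SD 1.55). CM117D03 read -2.58, -2.45 and -2.58 (mean -2.54, SD 0.0748). CM082C09 read -2.41, -2.35 and -2.48 (mean -2.41, SD 0.0623). CM117D03 and CM082C09 thus had differences of more than 5-fold with an SD under 0.1 log2 units. CM122F06 read -2.32, -2.13 and -2.71 (mean -2.39, SD 0.30). CM017H07 read -0.96 in set 1 and -3.87 in set 3 and was not measured in set 2 (mean -2.41, SD 2.06, n = 2), the widest spread of all 212, followed by CM015H12.

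The SD over sets was above 1 for 9 clones, and all 9 had their lowest value in set 3. These 9 were measured in a median of 2 of the 7 other comparisons, against 7 of 7 for the other 203. Whether weak spots account for both was not tested, since spot brightness was not used here. At the threshold the choice divides near neighbours. Just inside were CM110G08 at -1.2073 (sets -1.04, -1.1 and -1.48), CM117H03 at -1.2071 and CM061B08 at -1.201. Just outside were CM042D06 at -1.1979, CM030B11 at -1.1977 and CM122D03 at -1.1967 (sets -1.17, -1.06 and -1.35). The values of the clones on either side overlap in every set.

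Clone names carry a plate number, and plates below 80 and plates 80 up read differently as a whole. Plates below 80 held 124 of the chosen clones among 6158 with a value (2.01%). Plates 80 up held 88 among 3041 (2.89%). The chosen clones of both classes had close medians at +10, -1.44 and -1.46. Over all clones of both classes the median was -0.14, and 144 of the 212 stayed at -1.2 or lower when each array was centred on its clones. The median of all clones was -0.01 on plates below 80 and -0.33 on plates 80 up. Measured from the median of their own class, 123 of the 124 clones on the lower plates were still at -1.2 or lower, and 36 of the 88 on the higher plates. Clones higher in wild type were divided the other way, 618 (10.0%) on plates below 80 and 68 (2.24%) on plates 80 up. An offset of the plates and a difference in the RNAs they hold cannot be told apart, so the main counts below are also given by class.

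The clones were scattered over the collection. Of 124 plates with a measured clone, 96 held at least 1 of the 212, 43 held exactly 1 and 7 held 5 or more. Plate 103 held the most, 9 of them, from CM103C12 at -3.09 and CM103F10 at -2.76 to CM103G11 at -1.26. Among the wells, row H had the highest share (39 of 1144 clones, 3.41%) and row C the lowest (18 of 1209, 1.49%), while shares by column ran from 1.62% to 3.03%.

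At the younger age of +3 the clones also tended to be higher in fl, by much less. With the turned sign, 84 of the 171 clones tested were lower in wild type and 6 were higher (limma, adjusted p under 0.05 over all probes tested), against 25.2% and 19.1% of all probes. Their median was -0.33, against -0.07 for all clones. Every set was below 0 for 113 clones and above 0 for 12, a count not made over all clones. The mean over sets was below 0 for 144 of the 171, against 5862 of 10095 clones. Under the deposited sign the calls were 84 higher and 6 lower in wild type, with a median of 0.33, against 25.3% and 19.0% of all probes.

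The difference at +3 was small beside that at +10. With the turned sign, 4 of the 171 clones were at -1.2 or lower at both ages and 19 had at +3 more than 50% of their +10 log2 difference. With the deposited sign these numbers were 0 and 0. A +3 value above the +10 value was measured for 167 clones with the turned sign and 171 with the deposited sign, which the choice at +10 favours. On plates below 80, 51 of 99 were lower in wild type (51.5%, median -0.34), against 26.2% of all clones there (median -0.06). On plates 80 up, 33 of 72 were (45.8%, median -0.29), against 23.5% (median -0.09). Across 8822 clones with both values, the genotype difference at +3 correlated with that at +10 with r of 0.66 with the turned sign and -0.66 with the deposited sign. That r describes clones that share arrays and is no replicate test.

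CM038H03 had the lowest called ratio of wild type over fl at +3, with -1.03 and -2.03 in sets 2 and 3 (mean -1.53, SD 0.71, adjusted p = 0.00347 by limma). CM074F05 read -1.09, -1.28 and -2.20 (mean -1.52, SD 0.59, limma adjusted p = 3.87e-06). CM002F10 read -1.05, -1.03 and -1.22 (mean -1.1, SD 0.10, limma adjusted p = 1.39e-05). For these clones the difference at +3 was as large as or near that at +10, where CM002F10 read -1.11, -1.18 and -1.41. The largest differences the other way were small. CM101A10 read 0.53, 0.53 and 0.69 at +3 (mean 0.58, limma adjusted p = 2.39e-06) and -1.93, -1.81 and -1.87 at +10. CM089H03 read 0.58, 0.72 and 0.38 at +3 (mean 0.56, limma adjusted p = 0.00149) and -1.19, -1.29 and -1.39 at +10. These signs at +3 turn with the sign of the comparison.

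CM122F06 showed little at +3, with -0.01, 0.14 and 0.10 (mean 0.07, limma adjusted p = 0.622), against -2.39 at +10. CM050F11 read -0.52, -0.26 and -0.50 at +3 (mean -0.43, SD 0.15, limma adjusted p = 0.00193), against -3.09 at +10. Neither clone was among the 6 called at least 2-fold lower in wild type at +3.

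In wild type the same clones were on the whole higher late in development than at +3. At +15, 118 of 199 tested clones rose and 41 fell relative to +3 (limma, adjusted p under 0.05 over all probes tested), where 31.5% of all probes rose and 36.5% fell. Their median was 0.64, against -0.05 for all clones. At +20, 119 of 201 rose and 41 fell, where 33.5% of all probes rose and 35.8% fell, and the median was 0.52 against -0.01. Rises of at least 2-fold were called for 82 of 199 clones at +15, against 7.83% of all probes, and for 77 of 201 at +20, against 7.88%. At least 4-fold higher levels than at +3 were measured for 27 of 199 clones at +15 (13.6%), against 1.87% of all clones, and for 33 of 201 at +20 (16.4%), against 1.56%. By class, at +15 they were 21 clones below plate 80 (17.6%, all clones 2.54%) and 6 on plates 80 up (7.5%, all clones 0.641%). Counting calls of any size, more clones rose at these ages than the background share, and fewer fell. Falls of at least 2-fold were not fewer, with 18 of 199 at +15 and 16 of 201 at +20. Over all clones they were 786 of 10685 and 766 of 10480.

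Most of the clones that rose late lay on plates below 80, where rises were also more common among all clones. There 88 of 119 clones rose at +15 (73.9%), against 40.2% of all clones of these plates, and their median was 1.13 against 0.11. On plates 80 up 30 of 80 rose (37.5%), against 15.3% of all clones there, and the median was 0.09 against -0.37. At +20 the counts were 84 of 120 (70.0%) against 41.8%, and 35 of 81 (43.2%) against 17.7%, with medians of 0.99 against 0.14 and 0.10 against -0.32. In both classes the clones stood above their plates, from different levels, as the plot by plate class shows.

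**Figure D2:**
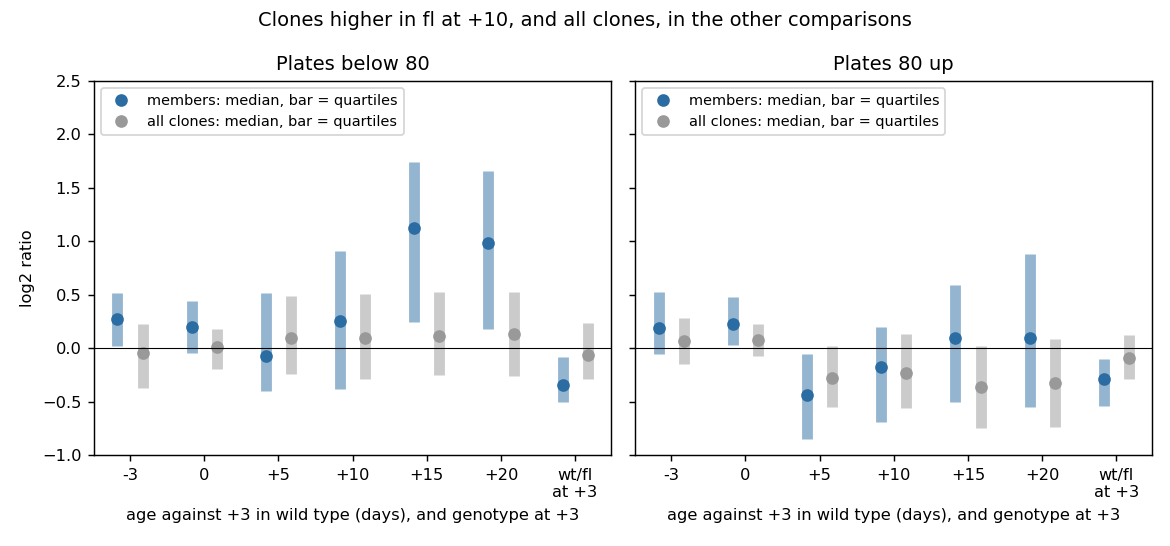
Median log2 ratio with quartile bars for the 212 clones (blue) and all clones (grey) in the 6 wild-type age comparisons with +3 and in wild type against fl at +3 (turned sign), for plates below 80 (left) and 80 up (right). On plates below 80 the chosen clones reach medians of 1.13 at +15 and 0.99 at +20, and on plates 80 up they stay near 0.1 while all clones lie below 0.

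All age comparisons share the +3 wild-type RNA, so they are not independent of one another. In the change from +5 to +15 the +3 level cancels and no +10 RNA enters. There 89 of 157 clones rose between these ages and 11 fell (limma contrast of both comparisons), where 16.6% of all probes rose and 18.9% fell. The median was 0.62, against -0.03 for all clones. Below plate 80, 59 of 89 rose (66.3%, median 0.76), against 18.9% of all clones there. On plates 80 up, 30 of 68 rose (44.1%, median 0.35), against 12.0%. The 686 clones higher in wild type at +10 went the other way, with 39 of 661 higher and 303 lower at +15 than at +5 and a median of -0.45. CM083E08 stood near its +3 level at +5, at 0.09 and 0.11, and at 3.52, 3.74 and 3.99 at +15, a rise of 3.65 from +5 (limma adjusted p = 3.23e-11). CM010H07 rose most, by 4.39 (limma adjusted p = 4.68e-07).

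CM123C12 and CM103C12 had the largest called falls from +5 to +15. CM123C12 read -0.17 and -0.09 at +5 and -0.84, -1.07 and -1.70 at +15, a change of -1.07 (limma adjusted p = 9.52e-05). CM103C12 changed by -1.34 (limma adjusted p = 0.043), a call that was lost under 5 of the alternatives tried, as when set 1 was left out (adjusted p = 0.226).

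The clones called higher at both +15 and +20 formed the largest course, 102 of 196 tested at both ages (52.0%), where 26.2% of all clones were. Their medians ran 0.29 at -3, 0.09 at 0, 0.13 at +5, 0.61 at +10, 1.46 at +15 and 1.47 at +20, all relative to +3. Of the 102, 78 lay on plates below 80, 66.1% of the clones tested there against 33.8% of all clones of these plates. The other 24 lay on plates 80 up, 30.8% against 11.5%. The group was picked for levels above +3 at the late ages, so its values there and its low at +3 follow from the choice. At +3 the median difference between wild type and fl was -0.36 with the turned sign, with 46 of 78 called lower in wild type and 3 higher. Among all clones of this course 24.6% were lower in wild type at +3 and the median was -0.05.

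CM010H07 had the steepest course. Relative to +3 it read -0.84, -0.74 and -0.70 at 0 and 1.39 and 1.03 at +5. At +10 it read 3.65 and 4.28, at +15 5.35, 4.53 and 6.89, and at +20 4.78, 4.72 and 5.38. Every set from +5 on lay above every set at 0. The mean at +15 was 5.59 (SD 1.20, n = 3), a 48.2-fold rise (limma adjusted p = 8.82e-12), and at +20 it was 4.96 (SD 0.36, limma adjusted p = 3.81e-11). Its ratio of wild type over fl at +10 was -1.74, -1.48 and -1.87, so the clone was higher still in fl while it rose 15.6-fold in wild type (mean 3.96, limma adjusted p = 5.08e-08).

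CM038D07 followed the same shape. It read 2.63 and 3.08 at +10, 4.51, 4.72 and 5.46 at +15 (mean 4.90, SD 0.50, limma adjusted p = 1.73e-15), and 4.54, 4.36 and 4.33 at +20 (mean 4.41, SD 0.11, limma adjusted p = 4.11e-15). Before flowering it was below its +3 level, at -0.95 and -0.77 (limma adjusted p = 0.000414). CM036E01 read 3.80, 3.96 and 5.63 at +15 (mean 4.46, SD 1.01, limma adjusted p = 4.68e-10) and 4.57, 4.71 and 5.16 at +20 (mean 4.81, SD 0.31, limma adjusted p = 1.81e-10). Both rose more than 20-fold at both ages, and all sets were far above 0.

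CM050F11, among the clones furthest apart at +10, also belonged here. It stayed at its +3 level at first, with -0.28 and -0.12 at -3, -0.11, -0.05 and 0.20 at 0, and 0.11 and -0.14 at +5. It then rose to 1.71 and 1.91 at +10, to 2.12, 2.40 and 2.28 at +15, and to 2.37, 2.60 and 2.19 at +20. The sets at the 3 later ages do not overlap those at the 3 earlier ones. The mean at +15 was 2.27 (SD 0.14, limma adjusted p = 4.65e-13) and at +20 2.39 (SD 0.20, limma adjusted p = 2.34e-13).

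CM021A01 fell at 0, with -0.83, -0.90 and -0.95 (mean -0.89, SD 0.0573, limma adjusted p = 7.31e-05), and read 2.66, 2.77 and 3.32 at +15. CM010H07 also fell at 0 (mean -0.76, limma adjusted p = 0.0421), a call that was lost without set 1 (adjusted p = 0.311) or set 2 (adjusted p = 0.0801). Both were thus lowest early and highest late.

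**Figure D3:**
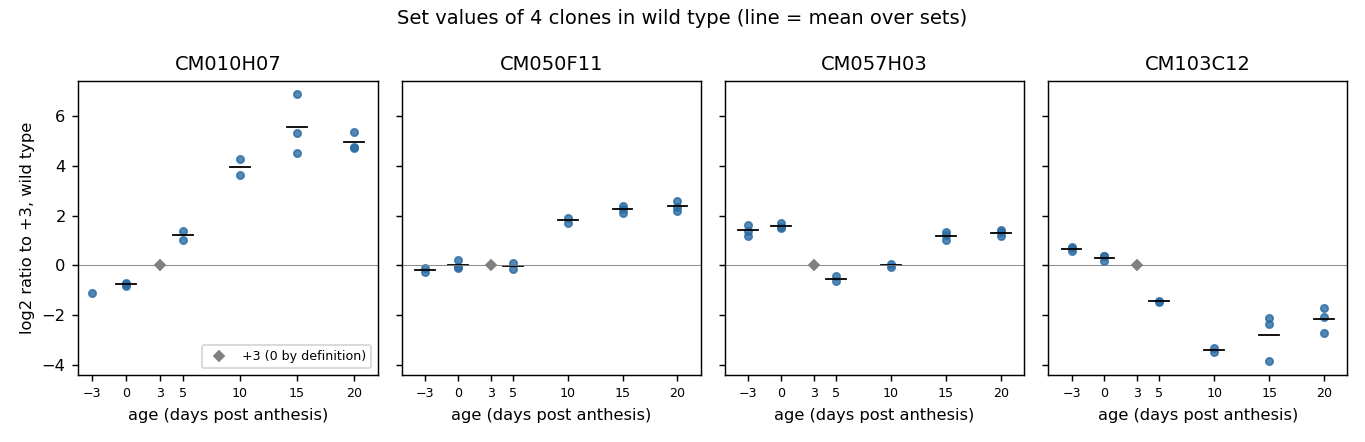
Log2 ratio to +3 in wild type (vertical axis) against age in days post anthesis for CM010H07, CM050F11, CM057H03 and CM103C12, with 1 point per set and a line at the mean. CM010H07 climbs to a mean of 5.59 at +15, CM050F11 steps up between +5 and +10, CM057H03 is high at both ends, and CM103C12 drops to a mean of -3.43 at +10.

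A smaller group was lower at both +15 and +20 than at +3, 34 of 196 clones (17.3%), where 30.5% of all clones were. Here 13 lay on plates below 80 (11.0% against 20.8% of all clones) and 21 on plates 80 up (26.9% against 49.0%). Their medians ran 0.06 at -3, 0.32 at 0, -0.86 at +5, -0.71 at +10, -0.995 at +15 and -0.82 at +20. This drop was present by +5. At +3, 15 of 33 were called lower in wild type and 1 higher (median -0.30, turned sign). Among all clones lower at both late ages 27.8% were (median -0.09).

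CM103C12 read 0.69, 0.75 and 0.56 at -3 (limma adjusted p = 0.0939), then -1.44 and -1.46 at +5 (mean -1.45, limma adjusted p = 0.00371). At +10 it read -3.35 and -3.51, a mean of -3.43 (SD 0.11, limma adjusted p = 5.38e-07), or 10.8-fold lower than at +3. At +15 it read -2.35, -2.14 and -3.87 (mean -2.79, SD 0.94, limma adjusted p = 1.83e-07) and at +20 -2.07, -1.72 and -2.71 (mean -2.17, SD 0.50, limma adjusted p = 4.85e-06). All sets from +5 on lay below 0 and all before +3 above it.

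CM105D10 read -1.94, -2.02 and -2.76 at +15 (mean -2.24, SD 0.46, limma adjusted p = 4.24e-10) and -2.05, -2.71 and -2.78 at +20 (mean -2.51, SD 0.40, limma adjusted p = 7.21e-11). CM092D07 read -1.29, -1.83 and -2.61 at +15 (mean -1.91, SD 0.66, limma adjusted p = 1.27e-09) and -1.92, -2.02 and -2.47 at +20 (mean -2.14, SD 0.30, limma adjusted p = 2.19e-10). In both, every set at these ages was more than 2-fold below +3.

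Another course was higher before and at flowering than at +3. At -3, 70 of 187 clones were called higher than at +3 and 19 lower, where 20.0% of all probes were higher and 25.0% lower, and the median was 0.22 against 0.01. The number called at -3 fell from 89 of 187 tested to 48 of 126 without set 1. Without set 2 it was 46 of 125, where the median was 0.09 and 30 were higher and 16 lower. The array medians of that comparison ran from -0.52 to 0.47. At 0, 76 of 212 clones were higher and 11 lower, where 14.4% of all probes were higher and 14.2% lower, and the median was 0.22 against 0.04. That number of calls, 87, was 48 without set 1, 142 in a fit of the comparison alone and 137 with arrays centred and scaled. On plates below 80 the median at -3 was 0.27, against -0.04 for all clones there, with 38.0% higher against 18.1%. On plates 80 up it was 0.19 against 0.07, with 36.7% higher against 23.6%. At 0 the medians were 0.20 against 0.02 and 0.23 against 0.08, with 33.9% higher against 13.5% and 38.6% against 16.1%.

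Higher at both -3 and 0 were 37 of 187 clones (19.8%), where 6.77% of all clones were, 21 of them on plates below 80 and 16 on plates 80 up. Their medians were 0.62 at -3, 0.55 at 0, -0.20 at +5, 0.01 at +10, 0.94 at +15 and 0.71 at +20. At +3, 29 of 34 were called lower in wild type (median -0.64, turned sign). Among all clones of this course 71.0% were (median -0.40), and the course was picked on the same +3 wild-type RNA, which favours a low wild type there. Of the 37, 21 were also among the 102 clones higher late and 4 among the 34 lower late. The 3 courses together took in 148 of the 212 clones, and 64 were in none. The 64 include clones that could not be tested at these ages, such as CM015H12. The share of all clones in at least 1 of the courses was not counted.

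**Figure D4:**
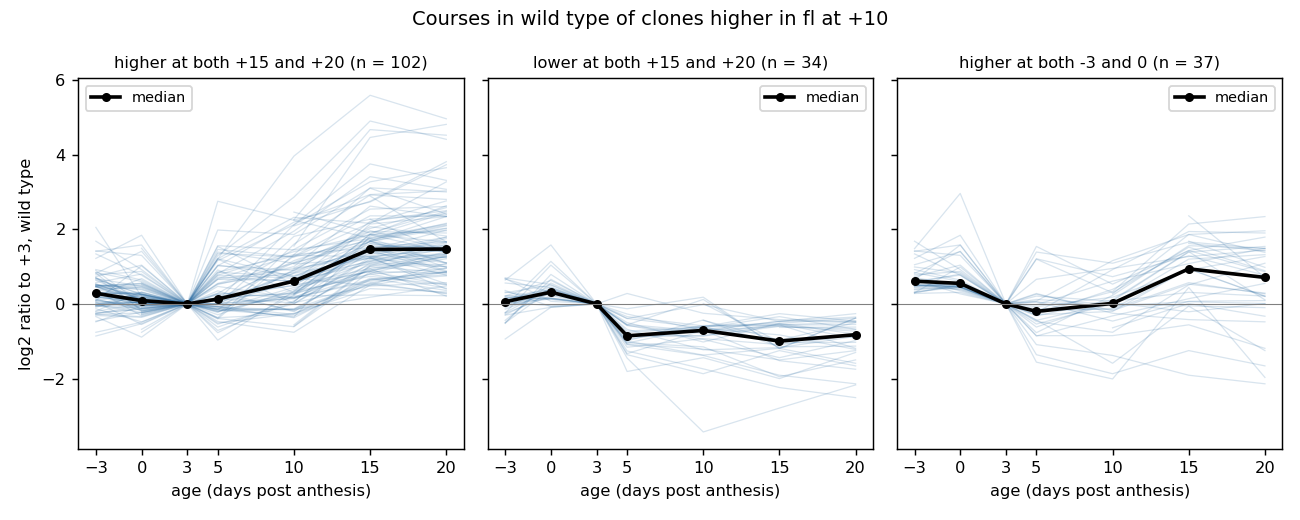
Log2 ratio to +3 in wild type against age in days post anthesis for the clones higher at both +15 and +20 (n = 102), lower at both (n = 34) and higher at both -3 and 0 (n = 37), with 1 thin line per clone and the median in black. The +3 point is 0 by definition. The first median climbs to 1.47, the second lies below 0 from +5 on, and the third dips to -0.20 at +5 between higher values.

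CM038H03 led the early-high clones, with 2.96, 2.95 and 2.99 at 0 (mean 2.96, SD 0.0225, limma adjusted p = 3.52e-06) and 1.15 and 1.80 at -3 (mean 1.48, limma adjusted p = 0.00412). It was also the clone with the lowest called ratio of wild type over fl at +3. CM004H08 read 1.91, 1.73 and 1.87 at 0 (mean 1.84, SD 0.0935, limma adjusted p = 1.47e-06) and 1.26, 1.68 and 0.73 at -3 (mean 1.22, SD 0.48, limma adjusted p = 0.000102).

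CM057H03 was high at both ends of the series. It read 1.40, 1.63 and 1.19 at -3 (mean 1.41, SD 0.22, limma adjusted p = 1.16e-10) and 1.53, 1.50 and 1.69 at 0 (mean 1.58, SD 0.10, limma adjusted p = 1.09e-10). At +5 it was below its +3 level, at -0.45 and -0.63 (mean -0.54, limma adjusted p = 0.00058), and at +10 it read 0.05 and -0.06. It then rose to 1.02, 1.22 and 1.36 at +15 (limma adjusted p = 8.14e-10) and 1.19, 1.43 and 1.34 at +20 (limma adjusted p = 1.85e-10). Sets at +5 and +10 do not overlap those at the earlier or later ages.

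The largest rise at -3 belonged to CM002F10, with 2.08, 2.23 and 1.83 (mean 2.05, SD 0.20, limma adjusted p = 1.47e-09), 4.13-fold above +3. CM032F07 read 1.45, 2.12 and 1.48 there (mean 1.68, SD 0.38, limma adjusted p = 1.27e-10). CM089H03 read -0.86, -0.78 and -1.54 at -3 (mean -1.06, SD 0.42, limma adjusted p = 1.03e-06), and CM105H10 read -0.57, -1.14 and -1.1 (mean -0.94, SD 0.32, limma adjusted p = 1.79e-05). These were the largest called falls at -3.

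At +5 more of the clones were lower than higher. Of 158 tested, 31 rose and 66 fell relative to +3, where 26.8% of all probes rose and 29.2% fell, and the median was -0.17 against -0.03. The share that fell was 28 of 89 on plates below 80 (31.5%), against 21.0% of all clones there, and 38 of 69 on plates 80 up (55.1%), against 45.6%. At +10, 62 of 185 rose and 63 fell, where 28.8% of all probes rose and 30.2% fell, and the median was 0.01 against -0.02. The comparison of +10 with +3 holds the +10 wild-type RNA that the choice also used. Both counts at +10, of calls of any size, were close to the background. Calls of at least 2-fold were not, with 33 higher and 18 lower of 185, against 636 and 385 of 10306 clones. The medians of the chosen clones at +10 were 0.26 on plates below 80, against 0.10 for all clones there, and -0.18 on plates 80 up, against -0.23.

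CM017A01 rose most at +5, with 3.08 and 2.41 (mean 2.75, SD 0.47, n = 2, adjusted p = 5.91e-11 by limma). CM072G07 read 2.03 and 1.92 there (mean 1.98, limma adjusted p = 3.87e-09) and -1.96, -2.0 and -1.76 for wild type over fl at +10. CM105H10 fell to -1.72 and -1.90 (mean -1.81, SD 0.13, limma adjusted p = 8.53e-08). Both sets of each clone lay well apart from 0. CM108D12 read -1.57 and -1.56 at +5 (mean -1.56, limma adjusted p = 4.38e-07), -1.99 and -2.02 at +10 (mean -2.01, limma adjusted p = 1.99e-08), and -1.39, -2.13 and -2.39 at +20 (mean -1.97, limma adjusted p = 2.01e-10). Between these it read 0.55, 0.29 and 0.46 at +15 (mean 0.44, limma adjusted p = 0.00991), so that its sets at +15 do not overlap those on either side.

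The other clones among the 8 furthest apart at +10 had no common course. CM117D03 rose at -3 (1.24, 1.26 and 0.83, limma adjusted p = 8.29e-08) and fell at +10 (-0.77 and -0.80, limma adjusted p = 7.73e-05). CM082C09 was above +3 in all sets at every other age measured, with 1.41, 1.79 and 0.82 at -3 and 1.73, 1.39 and 1.43 at +15 (mean 1.52, limma adjusted p = 5.95e-08). At +10 its sets were 0.14 and 0.46 and the mean, 0.30, was not called (limma adjusted p = 0.192). CM122F06 rose at 0 (0.62, 0.61 and 0.57, limma adjusted p = 0.000403) and fell at +10 (-1.05 and -1.01, limma adjusted p = 4.18e-06). CM015H12, CM017H07 and CM103F10 had at most 1 measured set at each of -3, +5, +10, +15 and +20 and were not tested there.

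Taking the 151 clones with values at all 7 wild-type ages, +3 counted as 0, the highest level fell at +15 or +20 for 75 (49.7%), against 26.0% of 9150 clones, and at -3 or 0 for 68 (45.0%), against 40.6%. It fell at +5 or +10 for 7 (4.64%), against 27.6%. The lowest level fell at +5 or +10 for 75 (49.7%), against 29.0%. It fell at +3 for 27 (17.9%), against 6.43%. The choice took clones with little wild-type relative to fl RNA at +10, which bears on the counts at that age. At +5 alone, the highest level was found for 3 clones (1.99%), against 14.7%, and the lowest for 41 (27.2%), against 14.3%. By class, the highest level was at +15 or +20 for 54 of 84 clones on plates below 80 (64.3%, all clones 31.1%) and for 21 of 67 on plates 80 up (31.3%, all clones 15.9%). It was at -3 or 0 for 32.1% and 61.2% of them, against 31.6% and 58.5% of all clones of these classes, and at +5 or +10 for 3.57% and 5.97%, against 32.8% and 17.4%. The lowest level was at +5 or +10 for 45.2% and 55.2%, against 27.1% and 32.6%. It was at +3 for 27.4% and 5.97%, against 7.65% and 4.0%. Highest and lowest level differed by at least 1 for 127 of the 151 clones (84.1%), against 44.9% of 9150. Of the 645 clones higher in wild type at +10 with all ages, 533 (82.6%) had their highest level at +5 or +10. Among these 645 the 2 levels differed by at least 1 for 623 (96.6%).

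No array compares fl at +3 with fl at +10, so that change was derived as the wild-type change less the change of the genotype difference. It holds the values of the choice and is given with no test. Over 163 clones the median change from +3 to +10 was -0.05 in wild type and 1.10 in fl with the turned sign at +3 (1.76 with the deposited sign), against -0.002 and 0.03 over 8698 clones. In fl the derived change was above 0 for 151 clones and at least 1 for 94 (160 and 125 with the deposited sign). Over the 8698 clones these counts were 4526 and 490 (4776 and 886 with the deposited sign). Of the 94, 24 were also at least 1 higher in wild type, as were 159 of the 490. In wild type 78 clones were above 0, 85 below, and 18 at -1 or lower, against 4336, 4362 and 279 of 8698. For 73 clones the change was below 0 in wild type and above 0 in fl (82 with the deposited sign). Of the 8698 clones this held for 1325 (2148 with the deposited sign). By class the medians were 0.21 in wild type and 1.39 in fl below plate 80 (93 clones), and -0.37 and 1.03 on plates 80 up (70 clones).

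Among the named clones, CM010H07 had a derived change of 5.45 in fl and 3.96 in wild type, and CM050F11 had 4.47 and 1.81. CM103C12 went down in both, by a derived -0.96 in fl and by -3.43 in wild type. A higher change in fl than in wild type is fixed by the choice for nearly all clones.

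**Figure D5:**
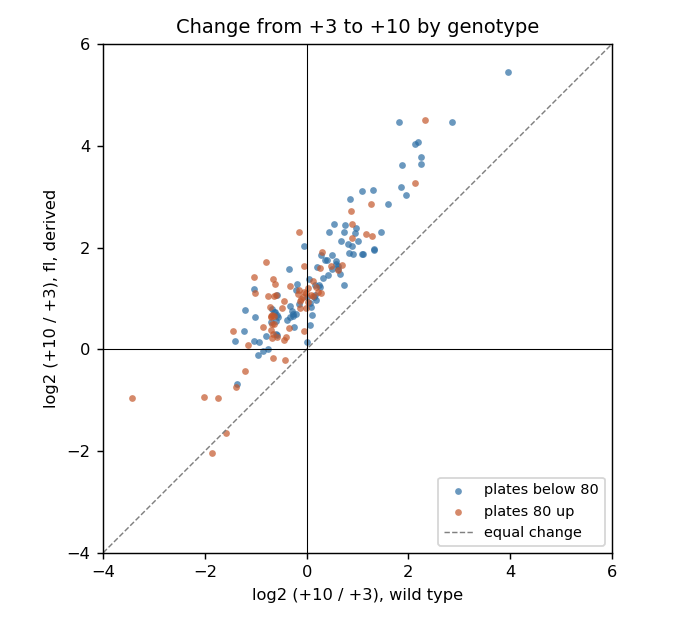
Log2 change from +3 to +10 in fl (derived, turned sign at +3, vertical axis) against wild type (horizontal axis) for the 163 clones with all 3 values, by plate class, with the line of equal change dashed. Nearly all points lie above the line, which the choice favours, and 151 lie above 0 on the fl axis.

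The 686 clones higher in wild type at +10 show what differs. At -3 their median relative to +3 was -1.26 with 570 of 668 lower (25.0% of all clones), and at 0 it was -0.81. It was 0.80 at +5, 0.94 at +10, 0.36 at +15 and 0.43 at +20. At +3 against fl their median was 1.04 with the turned sign, with 556 of 652 higher in wild type (-1.04 and 556 lower with the deposited sign). Of all clones 19.0% were higher in wild type there with the turned sign. The 212 clones had medians of 0.22, 0.22, -0.17, 0.01, 0.64 and 0.52 at the same ages and -0.33 at +3 against fl. The lists do not overlap in members, and no test of the difference between them was made, since the choice separated them.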

How the data were processed

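The deposited table holds the authors' log2 ratios for 11706 probes on 51 arrays. Its unit was found from the values, and the normalization method and scanner settings are not given in the sources used here. An exact 0 was treated as not measured. All age signs were turned so that a positive value is higher than at +3. A set's forward and dye-swap arrays were averaged, and a clone needed 2 sets with both arrays. One group-means model of all 8 comparisons was fitted over all probes with limma 3.58.1 (lmFit and eBayes, R 4.3.3), with Benjamini-Hochberg adjustment over all probes tested and calls at adjusted p under 0.05. The fit was tested on simulated data. The number of arrays limits the precision.

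The members, lists and named clones were chosen with earlier results of these data known. Named clones are the 8 lowest at +10, the 3 on either side of the threshold, the 2 largest called rises and falls in each comparison, the 3 with the largest mean size in each course, and the 2 widest spreads. CM103G11 was cited only as the end of the range on its plate, after its value was seen. Alternatives were centring, scaling, plate class, exact zeros, the shared array, single-comparison fits, a replicate block, left-out sets, folds and thresholds. Dye orientation alone, the median relative to the plate class and leaving out the widely spread members were added after seeing the data.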

Additional observations from a re-analysis of the deposited data

Results flagged for a closer look

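CM089H03 and CM101A10 had opposite signs at the 2 ages in every set: wild type minus fl was 0.56 and 0.58 at +3 (means of 3 sets, turned sign) and -1.29 and -1.87 at +10. The difference between the ages was not tested, because the +10 value chose the clones. With the deposited sign the +3 values are -0.56 and -0.58, and the signs are then alike.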

How the results depend on the processing

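The number of clones at the threshold, 212, was 105 with arrays centred and scaled, 364 at a threshold of -1 and 93 at -1.5. It was 144 with centring, 161 with centring within plate class (124 below plate 80 and 37 above), 282 from forward arrays alone (194 shared), 196 from dye swaps alone (171 shared, both added after seeing the data) and 157 to 239 when a set was left out. Requiring 2-fold as well left 13 of 187 clones called at -3 (12 higher) and 15 of 212 at 0 (all higher). It left 34 of 158 at +5 (17 higher), 51 of 185 at +10 (33 higher) and 100 of 199 at +15. Left at +20 were 93 of 201, at +3 against fl 6 of 171 (all lower), and for +15 against +5, 52 of 157 (50 higher). Over all clones the counts higher and lower were 103 and 573 of 10693 at -3 and 114 and 268 of 11664 at 0. They were 482 and 266 of 9622 at +5, 636 and 385 of 10306 at +10 and 838 and 786 of 10685 at +15. At +20 they were 826 and 766 of 10480, at +3 against fl 409 and 90 of 10095, and for +15 against +5, 398 and 463 of 9481. At 0 the count was 137 with scaling and 142 in a fit alone, against 87.

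Leaving out a set gave 46 to 103 calls at -3 (higher in 65.2% without set 2, against 78.7%), 48 to 84 at 0, 74 to 100 at +5, 107 to 123 at +10, 136 to 144 at +15, 137 to 143 at +20, 69 to 70 at +3 against fl and 78 to 93 for +15 against +5. A lone remaining set at +5 or +10 was assumed to vary like the others. Leaving out a set also changed the number tested, so the counts are not over the same clones. At -3 it was 125 to 182, against 187 with all sets, and at 0 it stayed 212. It was 172 to 184 against 199 at +15, and 175 to 190 against 201 at +20. For wild type against fl at +3 it was 131 to 162 against 171. Keeping the shared array gave 103 calls at +5, 137 at +10 and 110 for +15 against +5. The deposited sign at +3 gives a median of 0.331 and turns CM038H03 to 1.53, CM074F05 to 1.52, CM101A10 to -0.58 and CM089H03 to -0.56. Of 298 values of single clones under alternatives, 287 kept direction and call, 7 lost the call and 4 turned, all 4 with the deposited sign. CM103C12 at +15 against +5 lost its call under 5 alternatives (adjusted p from 0.0572 to 0.226 by limma).

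Set numbers were not taken to pair the sets. Deviations of same-numbered sets correlated from -0.173 to 0.308 (median 0.04, over 0.1 in 9 of 45) and of other sets from -0.299 to 0.24 (median -0.01, over 0.1 in 9 of 90). In 1 of 15 pairs of comparisons, +15 with genotype at +3, all 3 same-numbered values were over 0.1 (0.122 to 0.192). With the set number as a replicate block the calls were 90 at -3, 91 at 0, 97 at +5, 125 at +10, 160 at +15, 155 at +20, 89 at +3 against fl and 101 for +15 against +5, against 89, 87, 97, 125, 159, 160, 90 and 100 without it.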
